A study of Caenorhabditis elegans with 2 samples.

Results

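Intronic candidate regions of the homeodomain protein ALR-1 were the 2604 regions of the pooled candidate list whose point, the summit position given by the authors and the centre of every region, lay inside a protein-coding gene body, in no exon, and outside promoters. Promoters were taken as the stretch from 1000 bp upstream to 200 bp downstream of any protein-coding transcript start (Ensembl annotation of WBcel235, the assembly also named ce11), and regions overlapping a tRNA, rRNA, snRNA or snoRNA gene were left out. The pooled list held 12996 regions of 320 bp, so 20.04% of them were intronic by this rule (exact 95% interval 19.4 to 20.7%). A candidate is a region passed to the reproducibility analysis together with background, and most candidates are not called peaks. The authors' final list, made with the irreproducible discovery rate (IDR, a score of how consistently regions rank between lists), held 103 peaks. These were the strongest pooled candidates and 0.793% of the list, and 17 of them were intronic. Which lists were compared is not given in the sources used here, and some IDR peaks described below ranked far apart in the replicates.

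The samples were whole Caenorhabditis elegans of strain OP200, L2 larvae of mixed sex, in 2 biological replicates and 1 group. The strain carries unc-119(ed3) on chromosome III and the insertion wgIs200, from which eGFP-tagged ALR-1 is made, and the tagged protein was immunoprecipitated and its DNA sequenced (ChIP-seq). Both replicates carry the mutation and the insertion. Cells of all types were mixed, so a region can come from few cells or many, and no input or other control was analysed here, which leaves no value of the background at these sites.

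ALR-1 is the worm relative of Drosophila Aristaless, a paired-type homeodomain transcription factor, and is known for its part in the identity of touch receptor neurons and GABA motor neurons. Homeodomains of this type bind DNA around a TAAT core, often as TAATTA. Worm introns are mostly short, and the long ones can hold enhancers and the promoters of shorter transcripts, so an intronic region may act on its host gene, on a neighbour or on nothing.

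The sequences below show what lies at 8 of the strongest intronic IDR peaks, and then at the 3 strongest intronic regions with the homeodomain core whose windows lie wholly inside the intron (cct-5, cdk-5 and unc-79). Each runs from 100 bases before to 100 bases after the point, is taken from the RefSeq sequence of WBcel235 on the strand of the host gene, and lies wholly inside its intron. Capitals mark the core TAATTA and also mark the hexamer GAGAGA, which reads as TCTCTC on the other strand, and the hexamer GCGTCT, which reads as AGACGC there. In the fkh-7 window the last letters of GCGTCT are also the first of a TCTCTC. The hexamers GAGAGA and GCGTCT were picked after these sequences had been read, and TAATTA for the protein family.
fkh-7 at IV:5604582-5604782, plus strand: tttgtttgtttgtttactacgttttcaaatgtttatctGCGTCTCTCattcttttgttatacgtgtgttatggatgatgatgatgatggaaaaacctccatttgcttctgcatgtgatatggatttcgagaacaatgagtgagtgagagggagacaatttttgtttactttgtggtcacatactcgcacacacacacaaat
F09A5.3 at X:13145402-13145602, plus strand: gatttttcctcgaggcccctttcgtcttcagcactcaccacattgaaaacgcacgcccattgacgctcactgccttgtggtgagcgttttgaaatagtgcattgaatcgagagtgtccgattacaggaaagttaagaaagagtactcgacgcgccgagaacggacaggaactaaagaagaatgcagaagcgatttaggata
zfp-1, intron 10 at III:8800068-8800268, plus strand: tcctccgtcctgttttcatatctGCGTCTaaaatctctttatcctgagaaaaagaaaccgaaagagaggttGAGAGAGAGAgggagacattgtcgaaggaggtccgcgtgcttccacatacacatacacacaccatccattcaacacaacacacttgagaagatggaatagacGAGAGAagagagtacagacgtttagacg
larp-1 at III:5014043-5014243, minus strand: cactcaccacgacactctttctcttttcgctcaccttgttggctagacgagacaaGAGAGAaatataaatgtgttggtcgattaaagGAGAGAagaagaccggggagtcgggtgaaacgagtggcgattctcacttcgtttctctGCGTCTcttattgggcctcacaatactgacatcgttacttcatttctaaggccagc
zfp-1, intron 5 at III:8795585-8795785, plus strand: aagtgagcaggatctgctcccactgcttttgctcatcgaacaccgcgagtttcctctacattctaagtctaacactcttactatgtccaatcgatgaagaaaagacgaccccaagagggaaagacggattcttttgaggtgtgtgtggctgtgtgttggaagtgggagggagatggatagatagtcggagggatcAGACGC
Y111B2A.12 at III:12612615-12612815, plus strand: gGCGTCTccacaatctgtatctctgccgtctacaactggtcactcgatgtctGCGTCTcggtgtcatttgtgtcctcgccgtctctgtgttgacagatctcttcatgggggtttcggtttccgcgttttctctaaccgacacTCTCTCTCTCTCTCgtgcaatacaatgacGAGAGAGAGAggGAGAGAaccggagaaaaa
Y41G9A.17 at X:2997104-2997304, minus strand: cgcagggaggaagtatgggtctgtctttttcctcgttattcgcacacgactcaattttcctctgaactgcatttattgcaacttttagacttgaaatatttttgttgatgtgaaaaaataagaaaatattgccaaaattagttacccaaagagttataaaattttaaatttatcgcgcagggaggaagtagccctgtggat
nhr-19 at II:9603483-9603683, minus strand: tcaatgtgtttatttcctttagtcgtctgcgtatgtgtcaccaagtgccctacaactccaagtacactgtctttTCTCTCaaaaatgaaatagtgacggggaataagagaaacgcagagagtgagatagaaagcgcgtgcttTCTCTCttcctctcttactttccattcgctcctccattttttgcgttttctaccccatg
cct-5 at III:4505819-4506019, minus strand: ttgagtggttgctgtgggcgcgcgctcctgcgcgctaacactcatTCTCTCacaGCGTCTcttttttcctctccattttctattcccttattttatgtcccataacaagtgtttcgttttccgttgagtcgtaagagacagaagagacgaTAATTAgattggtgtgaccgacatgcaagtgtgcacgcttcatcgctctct
cdk-5 at III:13465088-13465288, minus strand: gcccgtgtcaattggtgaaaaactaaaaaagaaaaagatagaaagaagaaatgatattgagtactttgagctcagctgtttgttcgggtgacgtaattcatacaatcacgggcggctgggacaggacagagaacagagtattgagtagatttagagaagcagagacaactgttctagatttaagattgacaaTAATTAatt
unc-79 at III:4069763-4069963, plus strand: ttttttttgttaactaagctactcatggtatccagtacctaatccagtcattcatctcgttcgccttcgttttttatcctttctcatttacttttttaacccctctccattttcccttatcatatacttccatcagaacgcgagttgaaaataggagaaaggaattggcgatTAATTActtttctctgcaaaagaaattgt

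GAGAGA or TCTCTC stands in 6 of these 11 windows, those of fkh-7, zfp-1 (intron 10), larp-1, Y111B2A.12, nhr-19 and cct-5. GCGTCT or AGACGC also stands in 6, those of fkh-7, zfp-1 (both), larp-1, Y111B2A.12 and cct-5. F09A5.3 and Y41G9A.17 hold none of the 3 hexamers, and TAATTA stands only in the windows shown for it. Of these, cdk-5 encodes a cyclin-dependent kinase, and its region had a signal of 20.2 in the pooled list, 5.79 in replicate 1 and 5.35 in replicate 2.

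The strongest intronic region lay in the fourth of 6 introns of fkh-7, a forkhead transcription factor gene, at IV:5604522-5604841. Its signal was 37.3 in the pooled list, 15.7 in replicate 1 and 21.3 in replicate 2, and it ranked 5 by pooled signal among all candidates. Signal is the authors' own enrichment value for each region and is not on one scale across lists, so ranks within a list are used to set the replicates side by side. The fkh-7 region ranked 6 in replicate 1 and 14 in replicate 2, near the top of both. It lay 1548 bp from the nearest transcript start, which is also one of fkh-7, in an intron of 3019 bp.

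The other intronic IDR peaks with a strong region in both replicates were in genes of varied roles. The region in F09A5.3, in a first intron of 9158 bp, ranked 67 in replicate 1 and 13 in replicate 2. That in larp-1, a La-related RNA-binding protein gene, ranked 95 and 40 in replicates 1 and 2. The region in pct-1, which encodes a PCTAIRE cyclin-dependent kinase, ranked 73 in replicate 1 and 147 in replicate 2. With fkh-7, these were the intronic IDR peaks ranked 147 or better in both replicates.

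Other intronic IDR peaks ranked far higher in 1 replicate than in the other. The zfp-1 gene, the worm AF10 relative with PHD fingers, held 2 of them, with pooled signals of 33.96 and 30.3. The first had a signal of 28.03 and rank 4 in replicate 2, but 3.07 and rank 2258 in replicate 1. The second ranked 22 in replicate 2 and overlapped no replicate 1 region, and the same held for ccep-135, which ranked 38 in replicate 2. The vhp-1 region, in a gene for a dual-specificity MAP kinase phosphatase, ranked 45 in replicate 2 and 4176 in replicate 1. The reverse order was seen at T28F4.1, with rank 22 in replicate 1 and 333 in replicate 2, and at pqn-41, a gene for a glutamine-rich protein, with ranks 42 and 297.

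The chaperonin subunit gene cct-5 held 2 intronic IDR peaks in its second intron of 6134 bp, at III:4504323-4504642 and III:4505759-4506078. The first ranked 68 in replicate 1 and 759 in replicate 2, and the second 259 in replicate 1 and 82 in replicate 2, so the replicates ordered them oppositely. The remaining 5 lay in Y111B2A.12, Y41G9A.17, the nuclear hormone receptor gene nhr-19, the anion transporter gene abts-4 and the syntrophin gene stn-2. Their ranks ran from 425 to 1276 in replicate 1 and from 28 to 223 in replicate 2. In all, 15 of the 17 intronic IDR peaks overlapped a region of replicate 1 and 17 a region of replicate 2.

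**Figure D1:**
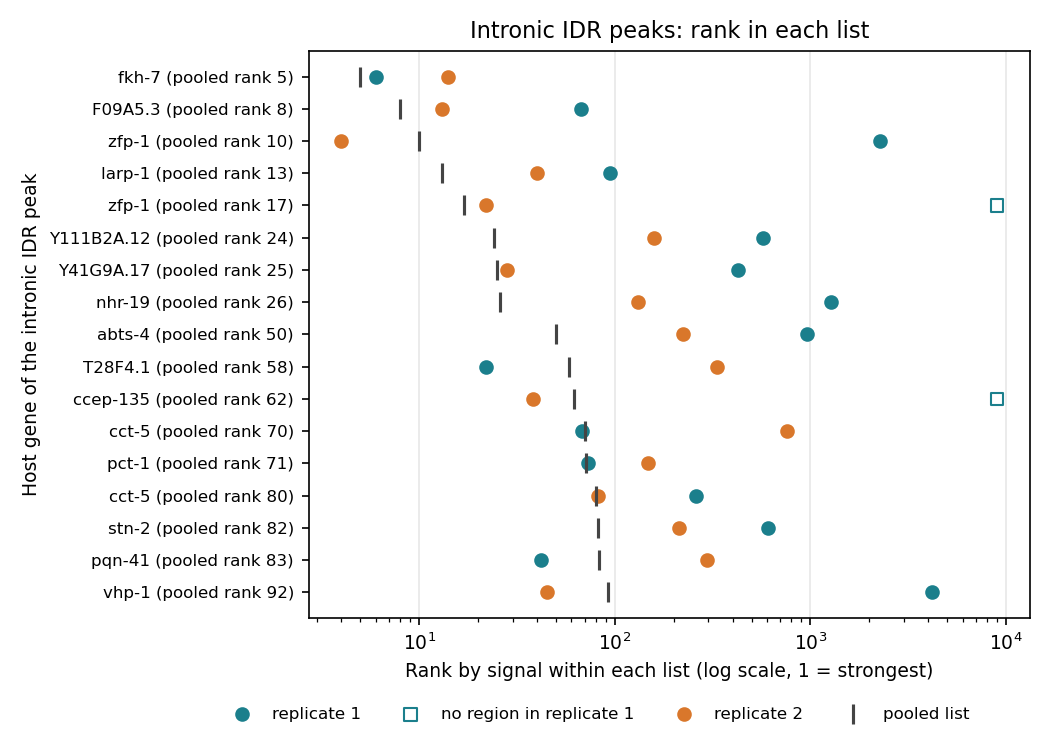
Rank by signal (log axis, 1 is strongest) of the 17 intronic IDR peaks in replicate 1, replicate 2 and the pooled list, one row per peak named by its host gene. Open squares at the right edge mark the zfp-1 peak of pooled rank 17 and the ccep-135 peak, which overlap no replicate 1 region; fkh-7 is near the top of all 3 lists, and vhp-1 and the zfp-1 peak of pooled rank 10 are far apart between replicates.

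Beyond the IDR peaks, most intronic candidates were weak and few recurred. Their median pooled signal was 3.79 (quartiles 2.88 and 5.56), against 4.35 for promoter, 3.37 for exonic, 3.90 for intergenic and 3.89 for all candidates. Of the 2604, 302 overlapped a region in both replicates by at least 1 bp (11.6%, exact 95% interval 10.4 to 12.9%), where 13.3% of all candidates did, and 987 (37.9%) overlapped a region of neither. Replicate 1 had a region at 28.6% of them and replicate 2 at 45.1%. Promoter candidates recurred in both replicates at 16.2%, intergenic ones at 13.1% and exonic ones at 6.60%. Across the 302 intronic regions found in both, the signals of the 2 replicates had a Spearman rho of 0.24, a description only, since the regions share the same libraries and the same pooled call.

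The share of IDR peaks among the intronic regions was close to that among all candidates. IDR peaks made up 0.653% of them, against 0.793% of all candidates, and the exact 95% interval, 0.381 to 1.04%, holds the second value. Counting any overlap with an IDR peak gave 22 intronic regions, or 0.845%, against 0.931% of all candidates. The other 5 were weaker candidates beside an IDR peak, in T28F4.1, cct-5 (2 regions), stn-2 and zfp-1. Such intervals cover counting error only and treat regions as independent, and the read depth behind the lists is unknown.

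The intronic share was lower among strong candidates than among weak ones. It was 16.5% of pooled ranks 1 to 103, 12.3% of ranks 104 to 500, 15.5% of ranks 501 to 2000, 19.5% of ranks 2001 to 8000 and 22.7% of ranks 8001 to 12996. In the replicates' own lists, classed by the same rule, 962 of 5071 regions of replicate 1 (18.97%) and 1427 of 7568 regions of replicate 2 (18.9%) were intronic. Within replicate 1 the share was 16.4% of ranks 104 to 500 and 19.5% of ranks from 2001 on, and within replicate 2 it was 13.4% and 19.9%. The direction was thus the same in both replicates.

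The rule's upstream limit of 1000 bp lay between regions of similar signal. The 135 intronic regions 1001 to 1200 bp upstream of a start had a median signal of 3.86, and 16.3% recurred in both replicates. The 136 regions that missed the rule by lying 801 to 1000 bp upstream, also inside introns, had a median signal of 3.76, and 8.82% recurred.

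Introns outside promoters and exons made up 26.6 Mb, or 26.5% of the genome, and held 97.9 pooled candidates per Mb. Promoters held 198 per Mb, intergenic sequence 135 and exons 78.3. In replicate 1 the order of introns and exons was reversed, with 36.2 per Mb in introns and 38.4 in exons, and in replicate 2 the values were 53.7 and 30.6. Promoters had the highest density of these 4 classes in each list.

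Within introns the density differed with length. Introns of 1 to 499 bp held 68.9 regions per Mb, those of 500 to 999 bp 59.0, of 1000 to 1999 bp 74.1, of 2000 to 3999 bp 141, and of 4000 bp and over 216. Introns of at least 2000 bp had 26.9% of the sequence and 1301 of the 2604 regions, or 182 per Mb against 67.1 per Mb in shorter ones, a ratio of 2.71. That ratio was 2.74 in replicate 1 and 3.96 in replicate 2. Of the 17 intronic IDR peaks, 15 were in introns of at least 2000 bp; the exceptions were stn-2, in an intron of 429 bp, and larp-1, in one of 1695 bp.

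Repeats moved with intron length and were set beside it. Of all intron windows of the same length as those shown, those more than 50% soft-masked (marked as repeats or low complexity in the reference) made up 47.8% in introns of 1 to 499 bp, 66.6% in those of 1000 to 1999 bp and 34.1% in those of 4000 bp and over. These windows lie wholly inside intron sequence, so introns too short to hold 1 are left out of these shares. Counted by base instead, with windows free to run past the intron, the order of the classes differed. Sequence at most 50% soft-masked then made up 5.97 of 7.87 Mb at 1 to 499 bp. It made up 1.92 of 5.21 Mb at 1000 to 1999 bp and 2.56 of 3.88 Mb at 4000 bp and over. Of the intronic regions, 17.4% were more than 50% soft-masked. Leaving such windows out of both the regions and the sequence, a choice made after seeing these values, gave 269 regions per Mb in introns of at least 2000 bp and 93.7 in shorter ones, a ratio of 2.88. The density then went up with each length class, at 77.2, 88.2, 153, 234.8 and 293 per Mb.

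**Figure D2:**
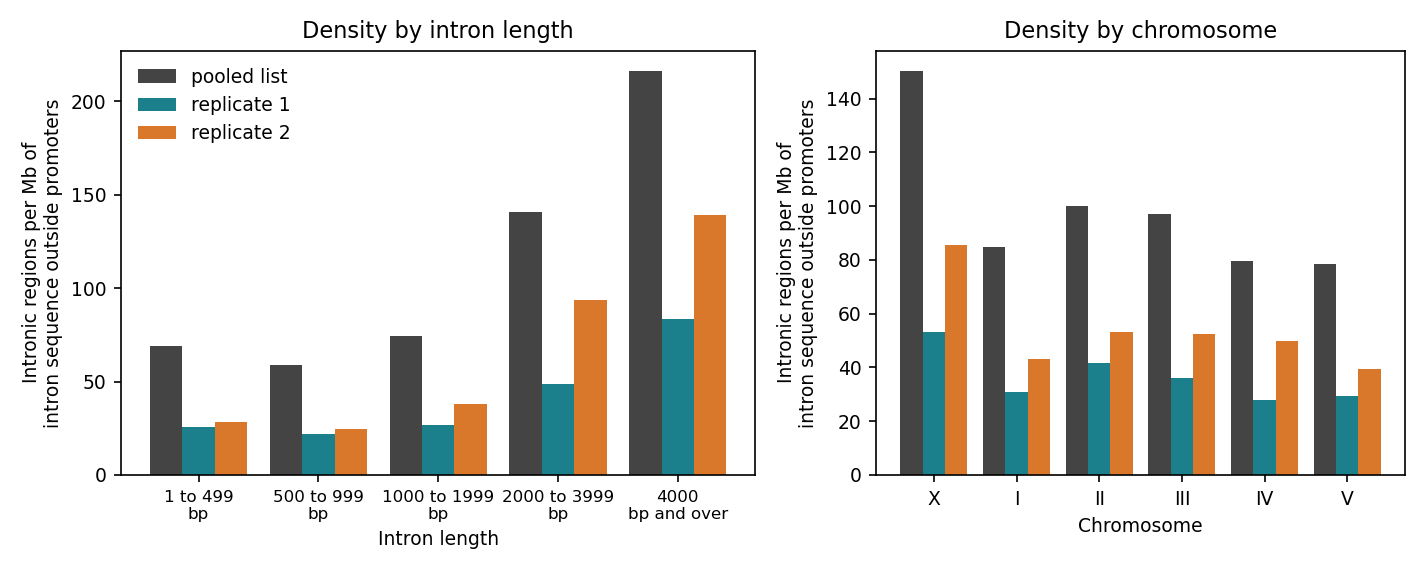
Intronic regions per Mb of intron sequence outside promoters and exons, by intron length (left) and by chromosome (right), in the pooled list and in each replicate. Introns of 4000 bp and over reach 216 per Mb in the pooled list, and chromosome X has the tallest bars of the 6 chromosomes in all 3 lists.

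First introns held 721 of the 2604 regions (27.7%) and 19.8% of the intron sequence. That was 137 per Mb in first introns, 101 in the second ones, 89.2 in the third and 84.0 in later ones. Split by length, the difference was seen mainly at 2000 to 3999 bp, with 200.9 per Mb in first introns against 120 in later ones, while at 4000 bp and over the values were 219 and 215. At 2000 to 3999 bp the replicates differed in size, with 53.8 per Mb in first and 46.96 in later introns in replicate 1, and 140 and 78 in replicate 2. First introns held 24.3% of the intronic regions of replicate 1 and 30.8% of those of replicate 2. Of the 17 IDR peaks 3 were in first introns, those of F09A5.3, T28F4.1 and vhp-1.

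Chromosome X had 669 intronic regions, or 150 per Mb against 87.4 on the autosomes, a ratio of 1.72 that was 1.62 in replicate 1 and 1.81 in replicate 2. The X density was the higher in every length class of the pooled list, for example 128 per Mb against 55.3 in introns of 1 to 499 bp and 258 against 206 at 4000 bp and over. X introns were also less repetitive, with 31.2% of windows more than 50% soft-masked against 58.4% on the autosomes. Without those windows the ratio was 1.35, with 181 per Mb on X and 134 on the autosomes, and it was 1.34 in replicate 1 and 1.30 in replicate 2. The IDR peaks had another order, with 8 of the 17 on chromosome III, 4 on X, 2 on each of II and IV, 1 on I and none on V. Chromosome III had 16.5% of the intron sequence and 16.4% of the intronic regions, and zfp-1 and cct-5 each held 2 of its 8 peaks.

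The homeodomain core was less frequent in the intronic regions than in intron sequence at large, but not at matched GC content. TAATTA, a palindrome and so the same on both strands, lay within 100 bp of the point in 212 of the 2604 (8.14%, exact 95% interval 7.12 to 9.26%), against 10.5% of all 98446 intron windows. It was found in 6.76% of the 651 strongest by signal and in 10.3% of the 651 weakest, and in 1 of the 17 IDR peaks, the cct-5 window shown above. The paired-type palindrome of TAAT, any 3 bases and ATTA was found in 0.998% of the intronic regions and 1.06% of windows. The regions had a mean GC content of 37.6 ± 6.58% (SD over regions, n = 2604), against 32.6% in the windows. It was 40.5% in the 651 strongest and 35.4% in the 651 weakest. Only 1999 of the 2604 stretches around the points lay wholly inside their intron, and the others ran past its ends. All intron windows lay wholly inside intron sequence, so the comparisons of GC, soft-masking and hexamers with windows are not fully like for like. Below 30% GC, TAATTA was in 18.04% of intronic regions and 15.1% of windows. The shares were 10.1% in both at 30 to 35% GC, 6.76% and 6.72% at 35 to 40%, 4.56% and 4.77% at 40 to 45%, and 4.49% and 3.07% from 45% GC. The longer palindrome was more frequent in regions than in windows in all 5 GC classes, on at most 8 regions in any class.

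GAGAGA and its reverse complement TCTCTC had the opposite pattern. They were found in 510 of the 2604 intronic regions (19.6%) against 7.66% of windows, in 32.7% of the 651 strongest against 9.83% of the 651 weakest, and in 12 of the 17 IDR peaks. Windows of some IDR peaks had been read before the hexamer was picked. The shares in IDR peaks and in the strongest regions are thus not independent of that choice. Regions present in both replicates had the hexamer at 34.4%, and regions in neither at 14.2%. Within each replicate's own intronic list, it was in 36.7% of the 240 strongest and 22.9% of the 240 weakest in replicate 1, and in 35.7% of the 356 strongest and 18.8% of the 356 weakest in replicate 2. By intron length, it was in 8.12% of regions and 5.82% of windows in introns of 1 to 499 bp, and in 28.4% and 12.96% in those of 4000 bp and over. The median pooled signal of regions in those length classes was 3.21 and 4.23, and the part of length in the relation with strength was not tested. GC content also moved with strength, at a mean of 40.5% in the 651 strongest and 35.4% in the 651 weakest, and its part was not tested either. At matched GC content of 35 to 40%, the shares were 18.1% of intronic regions and 10.3% of windows. Of the 651 strongest, 207 fell in that GC class, and 28.5% of these held the hexamer. It was not particular to introns, as 24.3% of promoter candidates and 26.1% of intergenic ones held it.

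GCGTCT and its reverse complement AGACGC were found in 6.61% of intronic regions and 3.31% of windows. The 651 strongest held it at 11.5% and the 651 weakest at 3.38%, and 8 of the 17 IDR peaks had it, those of fkh-7, zfp-1 (both), larp-1, Y111B2A.12, cct-5 (1 of 2), pct-1 and pqn-41. All of these but pct-1 and pqn-41 are windows read before the hexamer was picked. The shares in IDR peaks and in the strongest regions are thus not independent of that choice. At 35 to 40% GC the shares were 4.91% of intronic regions and 4.67% of windows, and above 45% GC they were 17.4% and 9.64%, so the difference from windows stood mostly in GC-rich regions. Of the 651 strongest, whose mean GC content was above that of the weakest, 7.25% held it at 35 to 40% GC and 24.1% above 45%. Promoter candidates had it at 11.4%. A match is a string of letters in the window and shows no bound site.

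**Figure D3:**
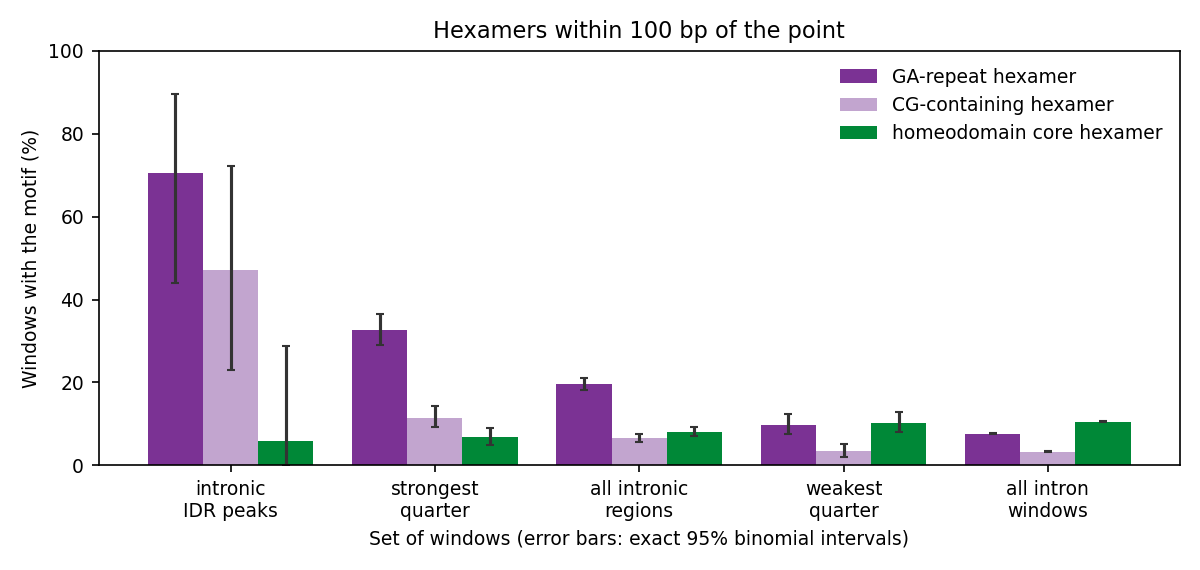
Share of windows holding each of 3 hexamers on either strand, for the intronic IDR peaks, the 651 strongest, all and the 651 weakest intronic regions, and all intron windows; the GA-repeat hexamer is GAGAGA, the CG-containing one GCGTCT and TAATTA the homeodomain core. The first, GAGAGA, is in 12 of 17 IDR peaks and 9.83% of the 651 weakest, and TAATTA shows no such fall. GAGAGA and GCGTCT were picked after windows of some of these IDR peaks had been read.

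The 2604 regions lay in 1612 host genes, 9.33% of the 17286 protein-coding genes with any intron sequence outside promoters and exons. Most hosts, 1151, had 1 region, and 74 had 5 or more, which together held 495 regions (19.01%). Host genes had a median of 3210 bp of such intron sequence, against 596 bp in the other genes. Replicate 1's own regions gave 709 hosts and replicate 2's 915, with 320 genes in both.

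The gene with most intronic regions was lin-14, the heterochronic regulator of early larval cell fates and target of the lin-4 microRNA, with 16 regions over 4 of its 12 introns on chromosome X. Its intron 3, of 10754 bp, held 11 of them, more than any other intron. The strongest, at X:11468902-11469221, had a signal of 16.1 in the pooled list, 3.98 in replicate 1 and 11.8 in replicate 2. The second, at X:11471917-11472236, had 15.3, 5.73 and 6.85 in the same lists. Of the 16, 6 had a region in both replicates, and none overlapped an IDR peak. At 10.7 regions per 10 kb of its intron sequence, lin-14 stood above the 0.979 per 10 kb of all genes, but it was chosen for its count.

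**Figure D4:**
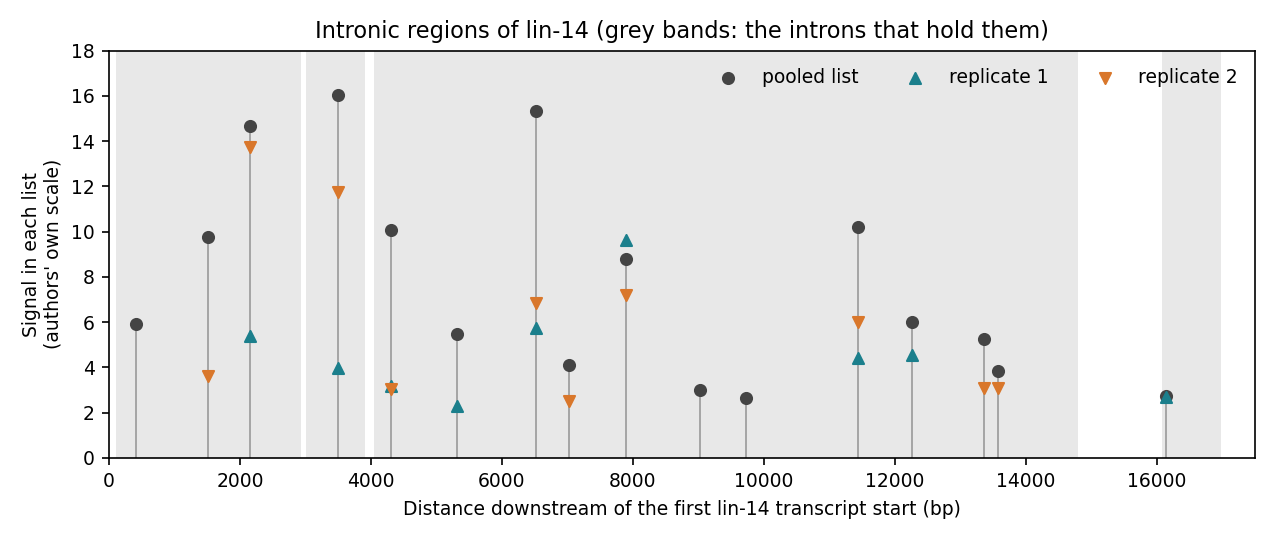
Signal of the 16 intronic regions of lin-14 against their distance downstream of the first transcript start, in the pooled list and in the replicate regions they overlap, each on its own scale. Grey bands are the introns that hold them; neighbouring regions can overlap the same replicate region, and the 3 strongest pooled regions (16.1, 15.3 and 14.7) lie in the first 3 introns.

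Next by count came daf-16, the FOXO factor of insulin signalling, with 12 regions, none of them above a pooled signal of 6.81. H18N23.2 had 11, of which none was matched in both replicates, and the cGMP-dependent protein kinase gene pkg-2 had 10, its strongest at 16.6. With 9 each followed unc-2 (a neuronal calcium channel subunit), mnk-1 (a MAP kinase-interacting kinase), daf-5 (a Ski and Sno relative of the dauer TGF-beta pathway), ncl-1 (a B-box regulator of nucleolar size), ppfr-1 (a phosphatase 4 regulatory subunit) and kin-1 (the catalytic subunit of protein kinase A). The genes ptp-3, mbl-1 and crh-1 also had 9, and the 6 just described are those of the 9 tied genes with the strongest best region. None of the 10 genes from lin-14 to kin-1 held an IDR peak in an intron, while cct-5, with 8 regions, held 2. In 6 of the 10 the strongest region ranked between 263, in pkg-2, and 328, in daf-5, among all candidates. Their intron sequence outside promoters ran from 5500 bp in mnk-1 to 37565 bp in unc-2, against a median of 679 bp over all genes.

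The alr-1 gene had 2 intronic regions, at X:11123691-11124010 and X:11124167-11124486. The first, in intron 4, had a signal of 8.52 in the pooled list, 7.07 in replicate 1 and 7.17 in replicate 2. The second, in intron 3, had 4.94 in the pooled list and 2.81 in replicate 2, and overlapped the same replicate 1 region as the first. The insertion is labelled as targeting alr-1, so reads from the inserted copy and from the gene itself cannot be told apart.

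Gene lists were compared by how many members hosted an intronic region, and by regions per 10 kb of their intron sequence, since long introns hold more. Of all genes with such sequence, 9.33% were hosts, and the host shares below are to be set against that value. All genes gave 0.979 per 10 kb in the pooled list, 0.362 in replicate 1 and 0.537 in replicate 2, and for introns of at least 2000 bp alone 1.82 in the pooled list. These are descriptions of counts, and genes of a list are not replicates.

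Panneuronal and axon guidance genes were hosts more often than the 9.33% of all genes with intron sequence outside promoters, and their introns are long, with a median of 3472 bp outside promoters in panneuronal and 4370 bp in axon guidance genes, against 679 bp over all genes. Of 42 panneuronal and synaptic vesicle genes, 22 hosted a region (52.4%), at 2.46 per 10 kb, with 1.03 in replicate 1 and 1.62 in replicate 2, and at 3.57 in long introns. The strongest was in ida-1, which encodes a dense-core vesicle protein, with signals of 13.98 in the pooled list, 7.71 in replicate 1 and 5.92 in replicate 2, followed by unc-76 and unc-33, both genes of axon outgrowth. Of 70 axon guidance and adhesion genes, 33 were hosts (47.1%), at 1.75 per 10 kb, led by madd-2, the L1CAM relative sax-7 and madd-4. Both lists were above all genes in the pooled list and in each replicate.

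G protein and second messenger genes had 31 hosts of 95 (32.6%), at 2.01 per 10 kb, and 3.48 in long introns. Their strongest regions were in pkg-2, in unc-43 (CaM kinase II), with signals of 15.5 in the pooled list, 6.04 in replicate 1 and 14.9 in replicate 2, and in the guanylyl cyclase gene gcy-28. Ion channel genes, with 47 hosts of 233 (20.2%), stood at 0.976 per 10 kb, against 0.979 over all genes, and in long introns at 1.55, against 1.82 over all genes. Their strongest was in unc-79, a gene for an accessory subunit of the sodium leak channel, with 18.4 in the pooled list, 5.92 in replicate 1 and 10.5 in replicate 2, and unc-2 and twk-43 came next. Of 124 neuropeptide and insulin-like genes 13 were hosts (10.5%), at 1.44 per 10 kb and 1.40 in long introns, below the 1.82 of all genes there, led by nlp-66, ins-18 and flp-18.

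Genes of the cell types in which ALR-1 is known to act had more regions in replicate 2's own list than in replicate 1's, as did all genes. Touch receptor neuron genes had 10 hosts of 28 (35.7%), at 2.51 per 10 kb in the pooled list, 0.571 in replicate 1 and 2.06 in replicate 2. All genes gave 0.979, 0.362 and 0.537 in the same lists. A single gene held 6 of the 22 touch receptor regions. The strongest of the 22 was in mec-12, an alpha-tubulin gene of these neurons, with 12.4 in the pooled list and 11.05 in replicate 2. It overlapped no replicate 1 region, though replicate 1's own list had 1 region elsewhere in the introns of mec-12. Next came alr-1 itself and ptl-1, a tau-like protein gene. GABA motor neuron genes had 4 hosts of 12 (33.3%) and 5 regions, and replicate 1's own list had none in them. These genes have only 25.4 kb of intron sequence outside promoters, so absence from 1 list says little. The strongest 3 were in unc-55, a nuclear receptor gene, in the GABA receptor gene unc-49 and in snf-11, which encodes a GABA transporter, at 12.1, 11.9 and 2.94 in the pooled list, and none of these 3 overlapped a replicate 1 region.

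Transcription factor families differed. Forkhead genes had 5 hosts of 15 (33.3%, against 9.33% of all genes) and 4.78 regions per 10 kb. But 12 of their 26 regions were in daf-16, and fkh-7 and fkh-9 held the other leading ones. Hox genes and cofactors had 5 hosts of 12 (41.7%), led by ceh-60 and mab-5, at 2.53 per 10 kb. Homeobox genes as a whole had 12 hosts of 101 (11.9%), near the share of all genes. They stood at 0.804 per 10 kb, below all genes in the pooled list and in replicate 1, and close to them in replicate 2 (0.55 against 0.537). Nuclear hormone receptor genes had 27 hosts of 269 at 1.28 per 10 kb, led by nhr-19, nhr-40 and the steroid receptor gene daf-12, and bHLH genes 7 hosts of 40 at 1.86, led by hlh-30, mdl-1 and ahr-1.

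Among other regulators, 9 of 59 RNA-binding genes were hosts, led by larp-1, mbl-1 and msi-1, and 11 of 92 chromatin regulator genes, led by zfp-1, set-18 and hda-4. Chromatin regulators stood at 1.02 per 10 kb in the pooled list, near the 0.979 of all genes, even though zfp-1 carries 2 of the 17 IDR peaks. They were below all genes in replicate 1 (0.323 against 0.362) and more so in replicate 2 (0.269 against 0.537). In long introns of the pooled list they were above, at 2.80 against 1.82, on 9 regions. There they were below all genes in replicate 1 (0.312 against 0.674) and close to them in replicate 2 (1.25 against 1.18). Wnt signalling and Groucho genes had 6 hosts of 30 (20%), the strongest in mom-1 at 18.9 in the pooled list and 17.4 in replicate 2. The mom-1 point was base 1 of its intron, so that region also covered sequence upstream of the intron. Replicate 1's own list had no intronic region in any gene of the list.

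Lists of other tissues were mixed. Muscle sarcomere and attachment genes had 14 hosts of 56 (25%, against 9.33% of all genes), at 0.901 per 10 kb, led by dim-1, vab-10 and zyx-1. Gene families with many intestinal members had 10 hosts of 385 (2.60%), at 0.341 per 10 kb, and no region in their introns of at least 2000 bp, led by clec-40, pept-1 and clec-189. Cuticle collagen genes had 8 hosts of 129 (6.20%), led by col-72. They stood at 1.73 per 10 kb in the pooled list, 0.433 in replicate 1 and 0.216 in replicate 2. They were thus above all genes in the pooled list and in replicate 1 and below them in replicate 2. Their intron sequence is short, with a median of 100 bp a gene. No ribosomal protein or translation elongation gene was a host among the 36 with such introns, which together have 4.12 kb of them.

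**Figure D5:**
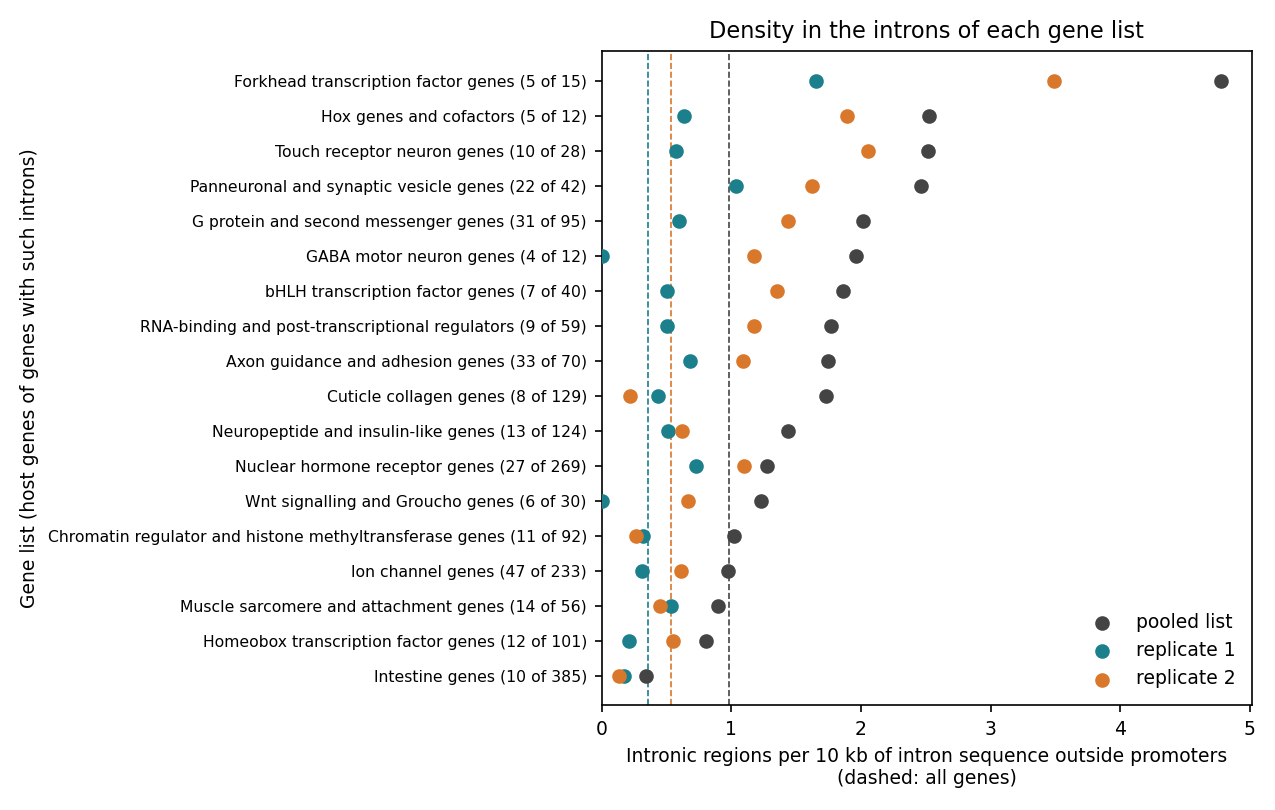
Intronic regions per 10 kb of intron sequence outside promoters and exons for the 18 gene lists with a region, in the pooled list and in each replicate, with the value over all genes as dashed lines. Panneuronal and synaptic vesicle genes lie right of the dashed line of each list, and gene families with many intestinal members left of it.

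Crowding limits how far regions can be counted as separate. Of the 2604, 192 overlapped another pooled candidate, and the 604 neighbour pairs within 1 intron had a median gap between points of 1085 bp. There were 41 regions inside introns of more than 1 host gene. Each was counted once, in the gene with the shortest intron around the point.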

How the data were processed

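ChIP-seq of eGFP-tagged ALR-1 was deposited as 4 lists on ce11: regions of each replicate (390 bp in replicate 1, 304 bp in replicate 2), of both pooled (320 bp), and IDR peaks, per the file headers and labels. The deposited signal of each region is the authors' enrichment value, on a scale of its own in each list; the deposited −log10 q-value was read but ranks nothing here. How reads were aligned, called and set against a control is not given in the sources used here. The IDR threshold and the lists compared for IDR are not given either. Lists on ce10 were not used.

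The class of each point was set in the order small RNA gene, promoter, exon of any annotated gene, intron, intergenic (Ensembl release 115). Introns are gaps in the joined exons of all transcripts of a gene. Hexamers were sought on both strands up to 100 bases from the point, and intron windows are consecutive stretches of that length wholly inside intron sequence outside promoters and exons. The class and motif steps were tested on simulated data. With 1 group of 2 replicates, regions not being replicates, no test was run; shares carry exact Clopper-Pearson 95% intervals. Genes named are alr-1, hosts of intronic IDR peaks or of the 15 strongest regions, the 10 genes with most regions (ties by best rank), the 3 leading genes of each of 19 lists, and hosts of the 3 sequences shown for TAATTA; ptp-3, mbl-1 and crh-1 were added as ties after their values were seen. Members, lists and this rule were chosen with earlier results of these data known; GAGAGA and GCGTCT, and the repeat filter, after seeing the values. Alternatives varied exons, promoter width, overlap, window and strength, and used each replicate alone. Tools were scipy 1.17.1, pandas 2.3.3 and numpy 2.4.6 on Python 3.11.15.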

Additional observations from a re-analysis of the deposited data

How the results depend on the processing

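No paired analysis was possible because all samples form 1 group, so no groups share replicate numbers. Of the 60 values recomputed, 27 stayed within the interval of the value reported (gene counts within 1.5 times) and 33 moved beyond it. The intronic share of candidates was 20.9% with exons of protein-coding genes only, 23.6% with promoters of 500 bp upstream and 100 bp downstream, 15.6% with 2000 bp upstream, 12.5% where the whole region had to be free of exons, 17.9% among the 6498 strongest candidates, and 18.86 to 18.97% with 1 replicate left out. Regions per Mb were 102 and 93.2 with the narrower and the wider promoter, 60.9 with the whole region free of exons, 43.7 among the strongest, 144 without repetitive windows, and 36.2 to 53.7 with 1 replicate left out. Overlap with an IDR peak was 1.89% among the strongest and 1.54 to 1.98% with 1 replicate left out. Recurrence in both replicates was 13.7% for regions free of exons, 23.4% among the strongest, and 8.29% when at least 50% of the region had to be covered. First introns held 30.04% with the narrower promoter, 33.2% of regions free of exons, 30.3% among the strongest, and 24.3 to 30.8% with 1 replicate left out. TAATTA was in 6.98% of regions free of exons, in 4.69% and 12.1% with 50 and 150 bp on each side, and in 6.86 to 7.99% with 1 replicate left out. Host genes numbered 936 for regions free of exons, 747 among the strongest, and 709 to 915 with 1 replicate left out. A stronger or single list holds fewer regions by construction. The ratio of long to short introns was 2.54 to 4.30 and that of X to autosomes 1.68 to 1.96 over the exon, promoter and strongest-candidate settings. Depth is unknown, so absence of a region says nothing of binding.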

Other observations

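The points of the intronic regions had no common place in the gene. They lay a median of 734 bp after the 5′ splice site and 963 bp before the 3′ splice site of their intron, and at a median of 39.4% of the gene body (quartiles 22.7 and 62.1%). The median distance to the nearest transcript start of any protein-coding gene was 1667 bp. Of the 2001 introns that held a region, 335 held 2 or more. After the third intron of lin-14 with 11, the first introns of H18N23.2 (12474 bp) and T28B11.1 (17091 bp) held 8 each, as did an intron each of cct-5, daf-16 and pkg-2. In that T28B11.1 intron replicate 1 had 6 regions of its own and replicate 2 had 5, while in the H18N23.2 intron replicate 1 had none and replicate 2 had 4. T28B11.1 was named after its count was seen.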
